A study of Mus musculus with 8 samples.

Results

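30 mouse genes that make, sense, take up, move and export cholesterol were examined across 4 culture media. They were picked by symbol from the 54532 genes of the count table, where each of the 30 symbols was found. All 30 passed the low-count filter that left 15470 genes for testing. By role they were 7 enzymes of the mevalonate steps, 11 enzymes of the squalene and sterol steps, 4 genes of sterol sensing, 3 of sterol uptake and transport inside the cell, and 5 of liver X receptor (LXR) signalling and export.

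The cells were wild-type mouse embryonic fibroblasts (MEFs), a primary culture taken from embryos, and each group had 2 RNA-seq libraries at day 4. The control group stayed in MEF medium. The CFAE+8 group received CHIR99021 (C, an inhibitor of the kinase GSK-3), Forskolin (F, an activator of adenylyl cyclase), AM580 (A, an agonist of retinoic acid receptor alpha), EPZ04777 (E, as the labels spell it, an inhibitor of the histone methyltransferase DOT1L) and A-83-01 (8, an inhibitor of the TGF-beta type I receptor). In CFAE+6, E-616452 (6, another inhibitor of that receptor) took the place of A-83-01. In CFAE+8+MSC, MSC2530818, an inhibitor of the kinases CDK8 and CDK19, was added to CFAE+8. C, F, A and E were common to the 3 cocktails, and no group held any of these agents alone. The labels give no doses, and they do not give the composition of MEF medium or of the base to which the agents were added. The agents and any other difference between the media therefore cannot be told apart in the comparisons with MEF medium. Separate cultures or embryos are not named for the libraries in the labels, so the p-values reflect the scatter among these particular libraries alone, and that scatter may be technical.

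Cells build cholesterol from acetyl-CoA through mevalonate and isoprenoid units to squalene, which is closed into lanosterol and trimmed to cholesterol. The transcription factor SREBP2 (Srebf2) is held in the endoplasmic reticulum by SCAP and the INSIG proteins while sterols are plentiful. When sterols fall, SCAP escorts it to the Golgi, where it is cleaved, and its free fragment switches on nearly every enzyme of the pathway, together with Insig1 as a brake. When sterols are in excess, oxysterols activate the LXR receptors Nr1h2 (LXR-beta) and Nr1h3 (LXR-alpha), which raise the export pumps Abca1 and Abcg1 and the ubiquitin ligase Mylip, which limits lipoprotein uptake. In fibroblasts these opposing programmes set the sterol content of membranes.

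Promoters of 24 of the 30 genes were matched in RefSeq (build GRCm38.p6), and the 250 bases upstream of each listed start were searched on both strands for sterol and helper motifs. 6 are shown here as examples of the 3 kinds of member described below: Hmgcs1, Idi1 and Cyp51 for synthesis, Insig1 and Scap for sensing, and Abca1 for export. Each is printed 5′ to 3′ on the gene's strand, and capitals mark the sterol regulatory element TCACNCCAC, the CCAAT box (ATTGG on the other strand) or, on either strand, a loose LXR direct repeat (the letters NGGTNA, then 4 bases, then NGGTNA again).
Hmgcs1 (chr13:119690101-119690350, plus strand): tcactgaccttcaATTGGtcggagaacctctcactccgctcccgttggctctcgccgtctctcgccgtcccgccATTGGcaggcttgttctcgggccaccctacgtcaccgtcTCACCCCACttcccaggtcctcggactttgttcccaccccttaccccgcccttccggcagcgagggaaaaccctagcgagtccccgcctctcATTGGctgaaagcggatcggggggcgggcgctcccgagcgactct
Idi1 (chr13:8885356-8885605, plus strand): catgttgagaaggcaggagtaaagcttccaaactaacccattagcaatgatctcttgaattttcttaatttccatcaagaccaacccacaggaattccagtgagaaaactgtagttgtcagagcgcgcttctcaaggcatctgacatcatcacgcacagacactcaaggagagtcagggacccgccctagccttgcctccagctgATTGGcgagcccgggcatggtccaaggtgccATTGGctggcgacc
Cyp51 (chr5:4104698-4104947, minus strand): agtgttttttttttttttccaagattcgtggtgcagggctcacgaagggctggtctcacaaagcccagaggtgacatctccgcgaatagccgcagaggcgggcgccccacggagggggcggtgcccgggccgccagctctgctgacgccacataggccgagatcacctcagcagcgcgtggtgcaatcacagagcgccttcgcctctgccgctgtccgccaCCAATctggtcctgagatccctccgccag
Insig1 (chr5:28071162-28071411, plus strand): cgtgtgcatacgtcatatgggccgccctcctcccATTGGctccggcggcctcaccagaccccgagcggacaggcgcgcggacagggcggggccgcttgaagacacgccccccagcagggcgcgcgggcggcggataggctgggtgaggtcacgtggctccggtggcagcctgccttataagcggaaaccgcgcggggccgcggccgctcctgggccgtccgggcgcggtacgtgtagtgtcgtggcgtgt
Scap (chr9:110333038-110333287, plus strand, 1 of its several listed starts): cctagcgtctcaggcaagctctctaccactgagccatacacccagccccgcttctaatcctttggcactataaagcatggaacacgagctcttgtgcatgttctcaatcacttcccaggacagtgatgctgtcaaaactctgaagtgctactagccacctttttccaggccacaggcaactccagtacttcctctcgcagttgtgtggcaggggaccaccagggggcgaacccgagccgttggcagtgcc
Abca1 (chr4:53159896-53160145, minus strand): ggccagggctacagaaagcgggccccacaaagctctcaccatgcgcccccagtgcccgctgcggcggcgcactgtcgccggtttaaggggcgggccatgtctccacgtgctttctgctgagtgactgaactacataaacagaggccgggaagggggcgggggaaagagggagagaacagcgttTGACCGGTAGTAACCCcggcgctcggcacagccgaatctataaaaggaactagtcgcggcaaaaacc
The CCAAT box, bound by the factor NF-Y that works beside SREBPs, was found upstream of 14 of the 15 synthesis enzymes with a promoter, Acat2 being the exception. It was also upstream of 5 of the 9 other members with a promoter, and of 40.2% of the 11030 tested genes with one. Hmgcs1 alone held TCACNCCAC, 137 bases upstream of its start, against 1.27% of tested genes. A shorter form, CACCCCAC, was upstream of Acat2 and Hmgcs1, 2 of the 15, against 3.45% of tested genes. The loose LXR repeat was found in Abca1 alone, 67 bases upstream, against 0.490% of tested genes, and the strict repeat, AGGTCA on both sides of 4 bases, in no member. The E-box CACGTG, which SREBPs can also bind, lay upstream of 3 of the 15 synthesis enzymes (Hsd17b7, Sc5d and Dhcr7) and of Insig1, Scap and Abca1, against 9.80% of tested genes. For Scap it lay upstream of another listed start and not in the sequence printed here. The GC box GGGCGG, bound by the general factor SP1, was found upstream of 14 of the 15 synthesis enzymes (all but Pmvk) and 7 of the 9 others, against 63.5% of tested genes. These matches describe letters in a short window and not binding.

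Library totals lay between 10958430 and 11913143 counts, and levels are given in CPM, counts scaled to library size, where 1 CPM stood for about 11.3 counts in a library. The 30 genes took 0.422 ± 0.00391% of all counts in MEF medium (mean ± SD, n = 2). Their share was 0.260 ± 0.00374% in CFAE+8, 0.289 ± 0.00102% with MSC2530818 added and 0.295 ± 0.00322% in CFAE+6. The share of mitochondrial transcripts was 1.23 ± 0.0231% in MEF medium, 1.98 ± 0.0323% in CFAE+8, 2.14 ± 0.0824% with MSC2530818 added and 2.15 ± 0.0927% in CFAE+6. In each cocktail the mitochondrial share was higher and the members' share lower than in MEF medium. Among the cocktails both shares were lowest in CFAE+8. A link between these shares was not tested. All 12 fibroblast markers checked were detected in every group, though their summed level was lower in the cocktails (35429 to 36395 CPM in MEF medium, 14281 to 14360 in CFAE+8, 14562 to 15001 in CFAE+8+MSC and 13397 to 13956 in CFAE+6). Most of that drop was in Col1a1, Col1a2 and Fbln2. In each cocktail 8 of the 12 were lower than in MEF medium and 4, Twist1, Thy1, Pdgfra and Lum, were higher. Liver cell markers were near absent, and Ttr, Serpina1a, Fgb and Cyp7a1 were at 0 counts in each group.

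In the cocktails, every one of the 18 synthesis enzymes fell against MEF medium, and so did most of the sensing, uptake and export genes. Of the 30 members, 28 were lower and 2, Scap and Npc2, were higher in CFAE+8. The same counts, 28 lower and 2 higher, were found in CFAE+6 and in CFAE+8+MSC. These calls are at an edgeR quasi-likelihood adjusted p below 0.05 over the 15470 genes. That threshold called 62.0% of all tested genes in CFAE+8 against MEF (30.8% higher, 31.3% lower). It called 63.1% in CFAE+6 against MEF (31.6% higher, 31.5% lower) and 64.1% in CFAE+8+MSC against MEF (31.9% higher, 32.2% lower). The 3 comparisons share the MEF libraries. In RNA from whole cultures, fewer cells of a type and less RNA per cell cannot be told apart.

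**Figure D1:**
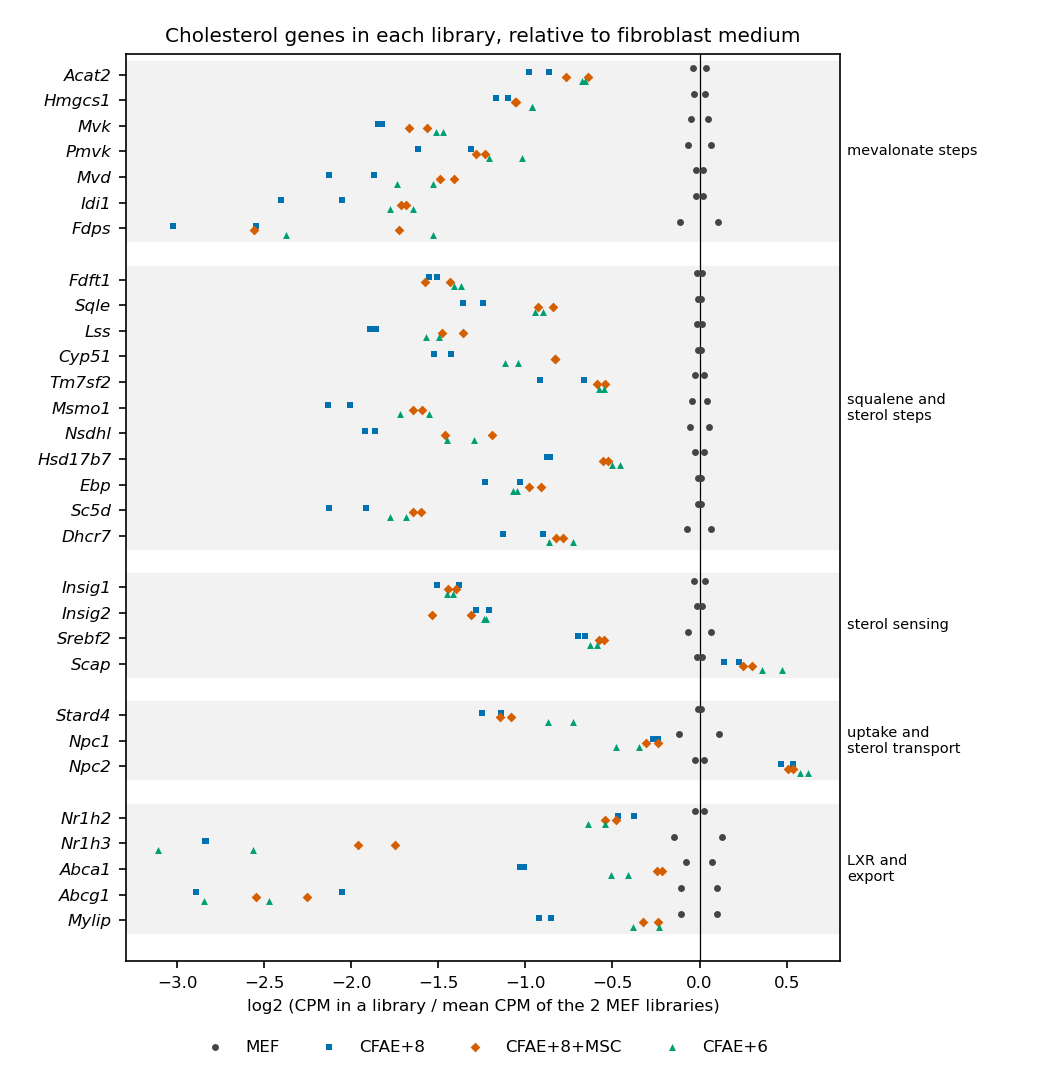
Each point is 1 library of a gene, as the log2 ratio of its CPM to the mean of the 2 MEF libraries, with genes grouped by role. All synthesis enzymes lie left of the line in the 3 cocktails, while Scap and Npc2 lie right of it.

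The mevalonate enzymes turn acetyl-CoA into the isoprenoid units from which sterols are built, and their median log2 fold change in CFAE+8 against MEF was −1.83, against 0.01 for all genes tested. Hmgcs1 (chr13:119690379-119708260, mm10) joins acetyl-CoA to acetoacetyl-CoA. Its level was 344 and 329 CPM in the MEF libraries, 157 and 149 in CFAE+8, 162 and 162 in CFAE+8+MSC, and 172 and 173 in CFAE+6. Every cocktail library was below both MEF libraries, and the fall in CFAE+8 was 2.20-fold (log2 fold change −1.14 ± 0.05 (SE), edgeR adjusted p = 9.1e-18). It shares 12.1% of its exon length with the predicted gene Gm48342. Idi1 interconverts the 2 isoprenoid units. It stood at 101 and 98.8 CPM in MEF medium, 18.95 and 24.2 in CFAE+8, 31.1 and 30.5 in CFAE+8+MSC, and 32.0 and 29.2 in CFAE+6. CFAE+8 held the lowest libraries and lay 4.64-fold below MEF medium (log2 −2.21 ± 0.09, edgeR adjusted p = 1.3e-18), and the other cocktails lay between the 2. Acat2, which makes the acetoacetyl-CoA, had the smallest fall of the group at 1.89-fold, from 199 and 189 CPM to 98.2 and 107. It shares a stretch of 445 bases with Tcp1 at 98.7% identity, and its reads are uncertain there. The kinases Mvk and Pmvk fell 3.57-fold and 2.74-fold, and the decarboxylase Mvd 3.98-fold.

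Fdps, which joins isoprenoid units into farnesyl diphosphate, had the largest fitted fall among the 18 enzymes, a rank that depended on which reads were counted for it. It had 196 and 175 counts in MEF medium, 25 and 35 in CFAE+8, 34 and 58 in CFAE+8+MSC, and 68 and 39 in CFAE+6. The log2 fold change in CFAE+8 against MEF was −2.76 ± 0.26 (edgeR adjusted p = 1.2e-10). It shares 26.7% of its exon length with Gm43738, and near-identical processed copies of it lie elsewhere in the genome, so reads may be split between them. Copy Gm3571, 98.9% identical over 1062 aligned bases, held 1289 counts over the 8 libraries against 630 for Fdps itself. With its 4 copies added to it, in a fit added after seeing the data, the log2 fold change in CFAE+8 was −2.07 (edgeR adjusted p = 1.0e-13), a smaller fall than that of Idi1 (−2.21).

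The squalene and sterol enzymes act after the isoprenoid branch point, and their median log2 fold change in CFAE+8 was −1.48. Fdft1 and Sqle, which make and oxidise squalene, fell 2.89-fold and 2.46-fold. Fdft1 shares 18.3% of its exon length with Ctsb, and without strand information its reads are uncertain there. Lss, which closes the rings to lanosterol, went from 223 and 219 CPM in MEF medium to 59.7 and 61.0 in CFAE+8, 86.3 and 79.5 in CFAE+8+MSC, and 78.5 and 74.6 in CFAE+6. The MEF libraries were far above the rest, and CFAE+8 was lowest. Cyp51, which removes a methyl group from lanosterol, stood at 409 and 404 CPM in MEF medium, 141 and 151 in CFAE+8, 228 and 228 in CFAE+8+MSC, and 197 and 188 in CFAE+6. Here all 4 groups were separated, in the order MEF medium, CFAE+8+MSC, CFAE+6 and CFAE+8. The fall in CFAE+8 was 2.78-fold (log2 −1.48 ± 0.05, edgeR adjusted p = 1.4e-20). Msmo1 and Nsdhl, which go on to strip methyl groups from the ring, fell 4.19-fold and 3.71-fold. Sc5d, which sets a double bond late in the pathway, fell 4.05-fold. The smaller falls were those of Tm7sf2, a sterol reductase (1.72-fold), Hsd17b7, a keto reductase (1.82-fold), Dhcr7, which makes the final reduction (2.01-fold), and Ebp, a sterol isomerase (2.18-fold). Tm7sf2 shares 12.1% of its exon length with its neighbour Vps51, and its reads are uncertain there.

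**Figure D2:**
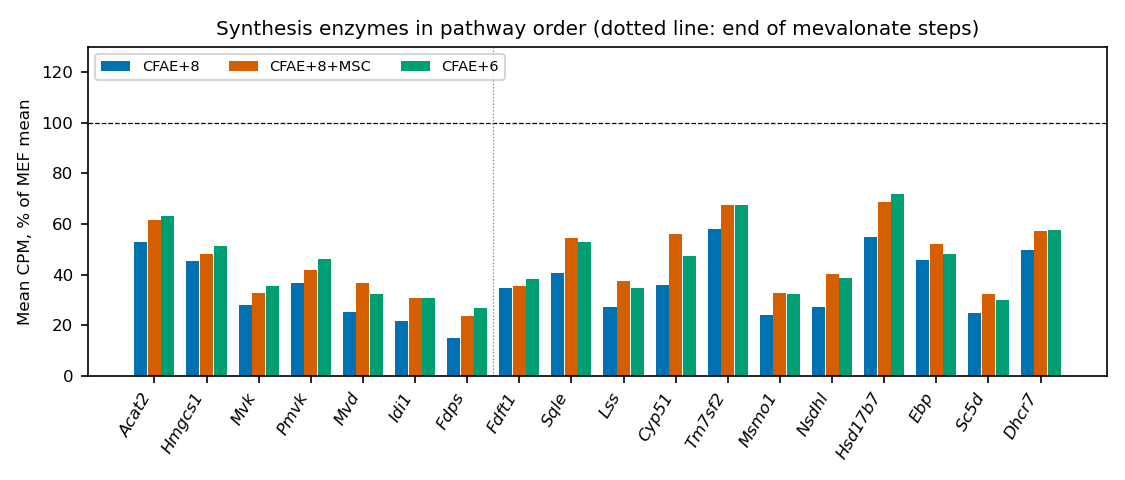
Bars give the mean CPM of each synthesis enzyme in a cocktail (n = 2 libraries) as a percent of its mean in MEF medium, in pathway order, with the dotted line at the end of the mevalonate steps. In CFAE+8 the bars run from 14.7% (Fdps, without its copies) to 58.1% (Tm7sf2), and for each enzyme CFAE+8 is the lowest of the 3 cocktails.

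The depth of the fall did not follow the order of the steps. In CFAE+8, the first 2 enzymes kept 52.8% (Acat2) and 45.5% (Hmgcs1) of their MEF level. Mvd, Idi1 and Fdps kept 25.1%, 21.5% and 14.7%, Sqle 40.6%, Msmo1 23.8%, and Dhcr7 49.7%. In CFAE+8+MSC the range over the 18 enzymes was 23.6% (Fdps) to 68.7% (Hsd17b7), and in CFAE+6 it was 26.9% (Fdps) to 71.8% (Hsd17b7). These Fdps levels leave out the copies. Together the 18 enzymes took 0.265 ± 0.00602% of counts in MEF medium and 0.108 ± 0.00121% in CFAE+8, against 0.134 ± 0.00240% with MSC2530818 added and 0.133 ± 0.000503% in CFAE+6. Neither with MSC2530818 added nor with E-616452 in place of A-83-01 did a library of any of them reach the MEF libraries.

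Among the sterol sensors, the SREBP2 gene and both brakes fell and the escort rose. Insig1 (chr5:28071363-28078662, mm10), the brake that SREBPs themselves switch on, stood at 180 and 172 CPM in MEF medium, 67.4 and 61.8 in CFAE+8, 64.6 and 66.8 in CFAE+8+MSC, and 64.4 and 66.1 in CFAE+6. The 3 cocktails overlapped with each other and lay below MEF medium by 2.72-fold in CFAE+8 (log2 −1.44 ± 0.06, edgeR adjusted p = 4.0e-18). Insig2, the brake that is not driven by SREBPs, fell 2.37-fold. Srebf2 went from 429 and 470 CPM in MEF medium to 277 and 285 in CFAE+8, 307 and 301 in CFAE+8+MSC, and 290.3 and 299 in CFAE+6. Its fall of 1.60-fold in CFAE+8 (log2 −0.68 ± 0.05, edgeR adjusted p = 7.1e-13) was below the estimate for each of the 18 enzymes, though within error of that for Tm7sf2 (log2 −0.78 ± 0.10). Scap read 125.2 and 128 CPM in MEF medium and 139 and 148 in CFAE+8. It read 150.4 and 156 in CFAE+8+MSC, and 162 and 176 in CFAE+6. Every cocktail library was above both MEF libraries, and the log2 fold changes were 0.18 ± 0.06 in CFAE+8 (edgeR adjusted p = 0.0082), 0.28 ± 0.06 in CFAE+8+MSC (0.00015) and 0.42 ± 0.06 in CFAE+6 (3.2e-07). The rise in CFAE+8 did not pass without CFAE+8 replicate 2 (edgeR adjusted p = 0.112) or without MEF replicate 1 (0.0522). Scap shares 13.2% of its exon length with 5830462I19Rik.

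The 3 genes of uptake and transport did not move together. Npc2, which binds cholesterol released in lysosomes, read 495 and 479 CPM in MEF medium and 674 and 705 in CFAE+8. It read 692 and 707 in CFAE+8+MSC, and 726 and 748 in CFAE+6. Every cocktail library was higher than both MEF libraries, with a log2 fold change of 0.50 ± 0.04 in CFAE+8 (edgeR adjusted p = 1.7e-11). Npc1, the lysosomal membrane protein that takes cholesterol over from NPC2, read 105 and 123 CPM in MEF medium, 96.2 and 94.6 in CFAE+8, 92.0 and 96.5 in CFAE+8+MSC, and 81.5 and 89.4 in CFAE+6. It was thus lower in the cocktails while its partner was higher, with a log2 fold change of −0.25 ± 0.07 in CFAE+8 (edgeR adjusted p = 0.0024). Npc1 lost its call without MEF replicate 2 in CFAE+8 (edgeR adjusted p = 0.134) and in CFAE+8+MSC (0.0982). Stard4, a carrier of cholesterol between membranes and a known SREBP2 target, fell 2.29-fold in CFAE+8, from 87.0 and 88.3 CPM to 39.8 and 36.9.

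Of the LXR and export genes, all 5 were lower in each cocktail than in MEF medium. Abca1 (chr4:53030787-53159895, mm10), the pump that loads cholesterol onto apolipoproteins, read 62.2 and 69.1 CPM in MEF medium, 32.6 and 32.1 in CFAE+8, 55.3 and 56.4 in CFAE+8+MSC, and 49.4 and 46.1 in CFAE+6. CFAE+8 was lowest and CFAE+8+MSC came nearest to MEF medium. The log2 fold change was −1.02 ± 0.08 in CFAE+8 (edgeR adjusted p = 8.2e-12), −0.46 ± 0.08 in CFAE+6 (1.0e-05) and −0.23 ± 0.08 in CFAE+8+MSC (0.011). The call in CFAE+8+MSC was lost without CFAE+8+MSC replicate 1 (edgeR adjusted p = 0.0641), without MEF replicate 2 (0.151) and with DESeq2 (0.0779). Mylip was also lowest in CFAE+8, with 45.0 and 51.9 CPM in MEF medium, 25.5 and 26.8 in CFAE+8, 38.6 and 41.1 in CFAE+8+MSC, and 37.2 and 41.3 in CFAE+6. It fell 1.85-fold in CFAE+8. Its lower level in CFAE+6 (edgeR adjusted p = 0.0049) did not pass without CFAE+6 replicate 1 (0.0791), without MEF replicate 2 (0.125) or with DESeq2 (0.0506). In CFAE+8+MSC (0.0085) it did not pass without CFAE+8+MSC replicate 1 (0.0796), without MEF replicate 2 (0.174) or with DESeq2 (0.0693).

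For Abcg1, the pump that hands cholesterol to high-density lipoprotein, it could not be told whether this pattern was shared. Counts of Abcg1 were 15 to 27 in each cocktail library. Its 95% interval in CFAE+8+MSC against CFAE+8 was −0.73 to 0.77 (log2), which includes the estimate for Mylip (0.61). It read 8.84 and 10.2 CPM in MEF medium, 1.28 and 2.29 in CFAE+8, 1.99 and 1.63 in CFAE+8+MSC, and 1.32 and 1.71 in CFAE+6. It fell 5.30-fold in CFAE+8 (log2 −2.40 ± 0.28, edgeR adjusted p = 1.6e-08) and stayed between 1.28 and 2.29 CPM in all cocktail libraries. Of the receptors, Nr1h2 was the more abundant, at 26.9 CPM per kilobase of gene length in MEF medium against 1.2 for Nr1h3. Nr1h2 read 91.6 and 88.6 CPM in MEF medium, 69.5 and 65.1 in CFAE+8, 61.9 and 64.6 in CFAE+8+MSC, and 57.7 and 61.8 in CFAE+6. Its fall in CFAE+8 was 1.34-fold. Nr1h3 rested on few counts, 35 and 30 in the MEF libraries and between 4 and 10 in each cocktail library, with a log2 fold change of −2.80 ± 0.50 in CFAE+8 (edgeR adjusted p = 1.4e-05). Markers of other cell types differed between the media as well, in both directions. The summed level of 15 macrophage markers was 243 to 246 CPM in MEF medium, 47.1 to 48.0 in CFAE+8, 26.3 to 29.3 in CFAE+8+MSC and 27.3 to 30.2 in CFAE+6. In CFAE+8 against MEF, 14 of the 15 were lower, and Itgam was at 0 counts in CFAE+8+MSC. From CFAE+8 to CFAE+8+MSC the summed macrophage level went down further. For 10 adipocyte markers the sum was 94.996 to 104 CPM in MEF medium and 14.6 to 25.9 CPM in the cocktail libraries, with Adipoq, Lep and Cfd at 0 counts in each group. The 8 mesothelial markers summed to 162 to 163 CPM in MEF medium, 11.2 to 12.2 in CFAE+8, 46.1 to 51.5 in CFAE+8+MSC and 39.9 to 40.8 in CFAE+6. Most of the MEF sum was Msln, with a mean of 101 CPM there. Against MEF, 6 of the 8 were lower and 0 higher in CFAE+8, but in CFAE+8+MSC and CFAE+6 4 were lower and 2, the keratin genes Krt8 and Krt18, were higher. Lrrn4 was at 0 counts in each cocktail. The 8 endothelial markers, 5 of them tested, went up in sum in each cocktail. They summed to 20.8 to 21.7 CPM in MEF medium and to 29.6 to 32.2 in CFAE+8, 56.1 to 57.6 in CFAE+8+MSC and 59.6 to 65.7 in CFAE+6. Most of each sum was Kdr, with means of 13.9, 20.6, 44.5 and 50.3 CPM in the same order. Against MEF medium, 3 of the 5 tested were higher and 1 lower in CFAE+8. In CFAE+8+MSC 2 were higher and 1 lower, and in CFAE+6 3 were higher and 2 lower. The part of these other cell types in the levels of the 30 genes was not tested.

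**Figure D3:**
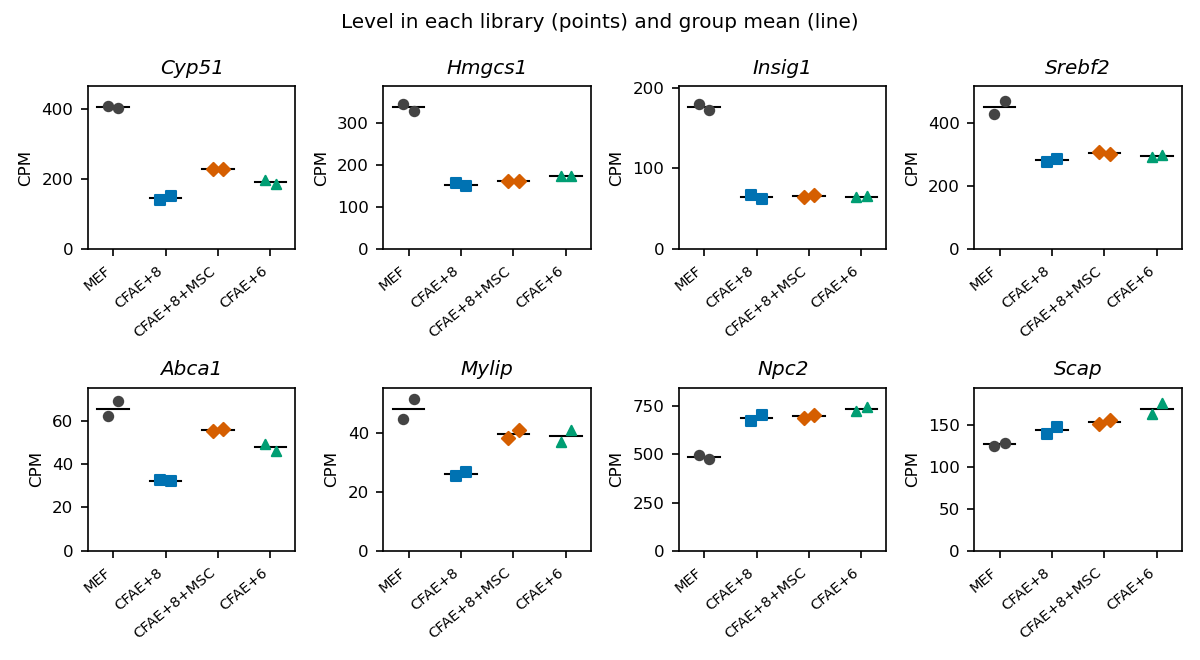
Points are the CPM of each library and lines the group means (n = 2) for 8 genes, with each axis starting at 0. Insig1 sits at one level in the 3 cocktails, Abca1 and Mylip are lowest in CFAE+8, and Npc2 and Scap are above their MEF level in each cocktail.

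Set side by side, the roles had unlike medians in CFAE+8 against MEF, though the ranges of their genes overlapped. Log2 fold changes ran from −2.76 to −0.78 for synthesis and from −1.44 to 0.18 for sensing. For uptake and transport they ran from −1.19 to 0.50, and for LXR and export from −2.80 to −0.42. A difference between roles was not tested. The median log2 fold change was −1.504 over the 18 synthesis enzymes and −0.95 over the 12 other members. By role the latter split into −0.96 for sensing, −0.25 for uptake and transport and −1.02 for LXR and export. In CFAE+8+MSC against MEF these medians were −1.29 for synthesis, −0.99, −0.27 and −0.51, and in CFAE+6 against MEF they were −1.24, −0.92, −0.41 and −0.59. The median over all genes tested was 0.01 for both cocktails with A-83-01 and 0.02 for CFAE+6. Per kilobase of gene length, the highest members in MEF medium were Cyp51 (92.0 CPM per kilobase) and Npc2 (89.5), followed by Acat2 (76.2) and Hmgcs1 (73.2). In CFAE+8 Npc2 led with 126.7 CPM per kilobase, ahead of Acat2 (40.2), Srebf2 (39.2), Hmgcs1 (33.3) and Cyp51 (33.1).

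Adding the CDK8/19 inhibitor MSC2530818 to CFAE+8 raised a set of sterol enzymes in part, together with Abca1 and Mylip, while none of the sensing or transport genes passed the test in the fit to all 8 libraries. Of the 30 members, 12 were higher, 0 were lower and 18 were not called, where 29.3% of all tested genes were called (15.6% higher, 13.8% lower). DESeq2 also called 12 higher and 0 lower, and at an unadjusted edgeR p below 0.05 there were 17 higher and 0 lower, Srebf2 being 1 of the 17. The 12 were 10 synthesis enzymes (Acat2, Mvd and Idi1 of the mevalonate steps, and Sqle, Lss, Cyp51, Msmo1, Nsdhl, Hsd17b7 and Sc5d of the later steps) and the LXR targets Abca1 and Mylip. The median log2 fold change was 0.22 over the mevalonate steps and 0.39 over the squalene and sterol steps, against 0.06 for sensing and 0.02 for uptake and transport. For LXR and export the median was 0.61. For Cyp51 the log2 fold change was 0.64 ± 0.05 (95% interval 0.54 to 0.75, edgeR adjusted p = 5.1e-11). Abca1 showed the largest called rise of the 30, at 0.79 ± 0.08 (interval 0.61 to 0.96, edgeR adjusted p = 1.4e-08), and Mylip rose by 0.61 ± 0.10 (1.7e-05). In these 3 genes both CFAE+8+MSC libraries were above both CFAE+8 libraries. Rises of the other called enzymes lay between 0.22 (Acat2) and 0.57 (Nsdhl). Tested by edgeR against a 1.2-fold change, 9 of the 12 calls remained. Acat2 (edgeR adjusted p = 0.98), Hsd17b7 (0.26) and Sc5d (0.12) did not pass that test. Without CFAE+8 replicate 1 or CFAE+8+MSC replicate 1, Acat2 did not pass (edgeR adjusted p = 0.151 and 0.139).

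The members that did not pass in CFAE+8+MSC against CFAE+8 differed in how closely their change was bounded. Insig1 was at 0.02 ± 0.07 (95% interval −0.12 to 0.16, edgeR adjusted p = 0.84), an interval wholly below that of Cyp51. Fdft1 was at 0.03 ± 0.07 (−0.11 to 0.17) and Hmgcs1 at 0.08 ± 0.05 (−0.03 to 0.19). Npc2 was at 0.02 ± 0.04 (−0.06 to 0.11). For Fdps (0.67 ± 0.31, interval 0.03 to 1.32), Nr1h3 (0.96 ± 0.62, −0.30 to 2.23) and Abcg1 (0.02 ± 0.36, −0.73 to 0.77), whose counts were low, the intervals were wide and smaller differences were not detectable at this depth. Fdps passed when its copies were added to it (log2 0.47, edgeR adjusted p = 0.024) or without CFAE+8+MSC replicate 1 (0.0214). Dhcr7 (0.0329) and Tm7sf2 (0.0488) passed without CFAE+8 replicate 2. Mvk passed under a stricter filter that kept genes averaging 5 CPM or more (edgeR adjusted p = 0.0411). Of the sensing genes, Srebf2 passed when only the 2 groups compared were fitted (log2 0.12, edgeR adjusted p = 0.0414).

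**Figure D4:**
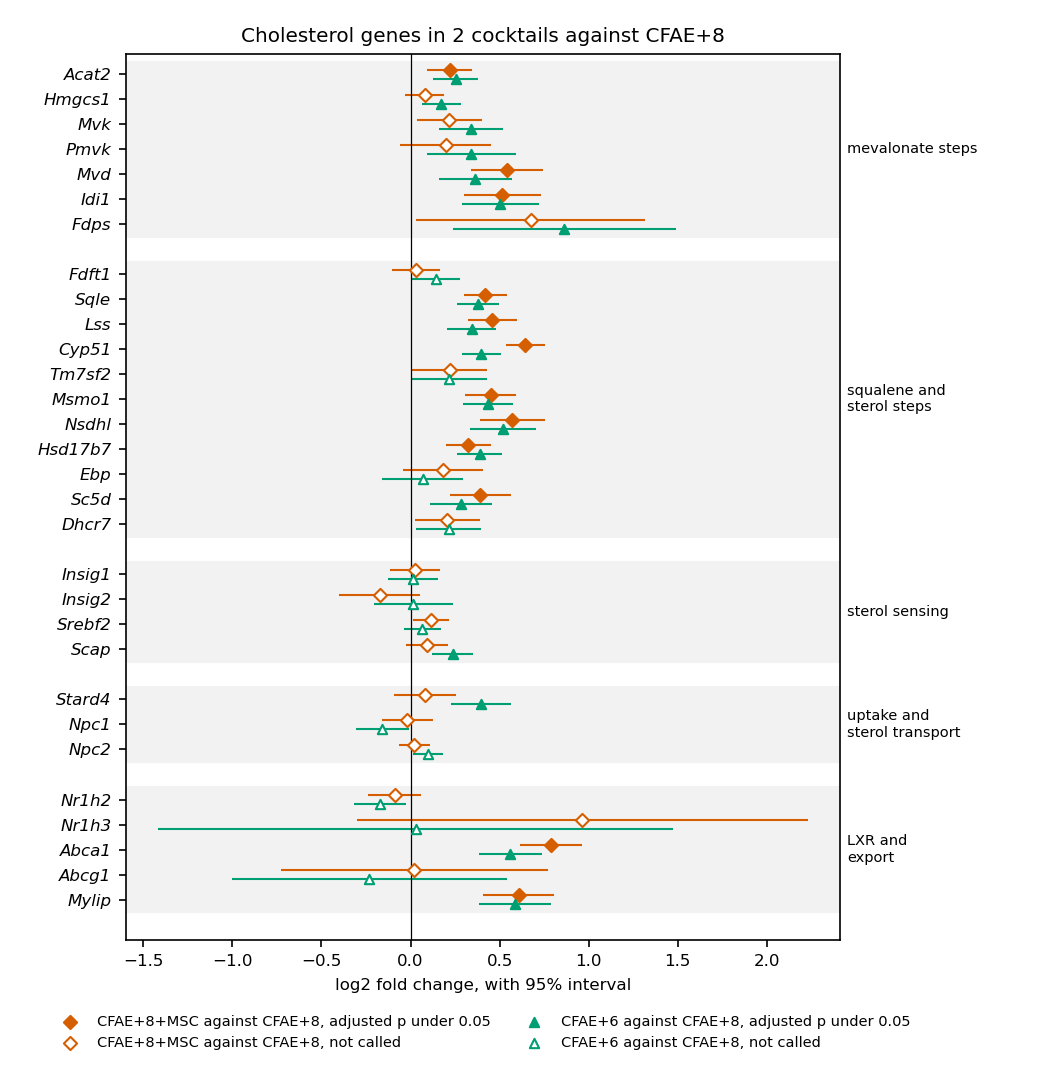
Points are log2 fold changes of the 30 genes against CFAE+8 and bars their 95% intervals, for CFAE+8+MSC (diamonds) and CFAE+6 (triangles), filled where the edgeR adjusted p was below 0.05. Both comparisons use the same CFAE+8 libraries; the filled symbols all lie right of 0, and the 3 widest intervals are those of Nr1h3, Abcg1 and Fdps.

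Exchanging A-83-01 for E-616452 was also followed by higher levels of sterol enzymes, and here each of the mevalonate enzymes passed the test against no change. Tested by edgeR against a 1.2-fold change, 6 of the 18 calls below remained (Idi1 the only one of the mevalonate enzymes). In CFAE+6 against CFAE+8, 18 members were higher, 0 were lower and 12 were not called, where 26.6% of all tested genes were called (14.3% higher, 12.3% lower). DESeq2 called 15 higher and 0 lower, and at an unadjusted edgeR p below 0.05 there were 22 higher and 2 lower (Npc1 and Nr1h2). The 18 comprised all 7 mevalonate enzymes, 7 of the 11 later enzymes (Sqle, Lss, Cyp51, Msmo1, Nsdhl, Hsd17b7 and Sc5d), Scap, Stard4, Abca1 and Mylip. The median log2 fold change was 0.34 in both groups of enzymes, 0.04 for sensing, 0.10 for uptake and transport and 0.03 for LXR and export. The last is the value of Nr1h3 (0.03 ± 0.70), which had 4 to 6 counts in each library of these groups. Nsdhl rose by 0.52 ± 0.09 (edgeR adjusted p = 4.6e-05), Idi1 by 0.50 ± 0.11 (0.00051) and Cyp51 by 0.40 ± 0.05 (9.0e-07). Outside synthesis, Mylip rose by 0.58 ± 0.10 (edgeR adjusted p = 3.4e-05), Abca1 by 0.56 ± 0.09 (8.7e-06), Stard4 by 0.39 ± 0.08 (0.00051) and Scap by 0.24 ± 0.06 (0.0023). Insig1 was at 0.01 ± 0.07 (95% interval −0.13 to 0.15), and Insig2 at 0.02 ± 0.11 (−0.21 to 0.24). The doses of both receptor inhibitors are not given, so a difference between the compounds and a difference in dose cannot be told apart. This comparison shares its control libraries with the one of CFAE+8+MSC.

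Several of these smaller rises rested on single libraries. Without CFAE+8 replicate 1, Acat2 (edgeR adjusted p = 0.0850), Fdps (0.234), Mvd (0.181), Pmvk (0.395) and Scap (0.0671) did not pass. Without CFAE+8 replicate 2 the same held for Hmgcs1 (edgeR adjusted p = 0.183) and Sc5d (0.243), while Dhcr7 was gained (0.0334). Without CFAE+6 replicate 2, Hmgcs1 (0.0548), Mvd (0.137), Pmvk (0.279), Sc5d (0.105) and Scap (0.0570) did not pass, while Npc1 was called lower (0.0481). Fdps did not pass without CFAE+6 replicate 1 (edgeR adjusted p = 0.504), without either MEF replicate (0.0510 each), with its copies added (0.166) or with DESeq2 (0.114). DESeq2 also did not call Pmvk (adjusted p = 0.172) and Sc5d (0.0627). Mvk, Idi1, Sqle, Lss, Cyp51, Msmo1, Nsdhl, Hsd17b7, Stard4, Abca1 and Mylip passed in each of the 8 fits that left out 1 library.

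Set directly against CFAE+6, CFAE+8+MSC differed in 2 members, where 10.5% of all tested genes were called (6.21% higher, 4.27% lower). Cyp51 was higher in CFAE+8+MSC, with a log2 fold change of 0.25 ± 0.05 (95% interval 0.14 to 0.35, edgeR adjusted p = 0.0014). Stard4 was lower by a log2 fold change of −0.31 ± 0.08 (interval −0.48 to −0.15, edgeR adjusted p = 0.011). The CPM of Stard4 were 41.4 and 39.6 in CFAE+8+MSC and 53.0 and 47.8 in CFAE+6. It did not pass without CFAE+6 replicate 1 (edgeR adjusted p = 0.138), without CFAE+8+MSC replicate 2 (0.0974) or with DESeq2 (0.0698). Abca1 stood at 0.23 ± 0.08 (interval 0.06 to 0.39, edgeR adjusted p = 0.069). For the 17 other synthesis enzymes the log2 values ran from −0.19 (Fdps) to 0.18 (Mvd) and none was called by edgeR, also at an unadjusted p below 0.05.

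Genes of neighbouring pathways were followed in 5 lists, whose medians lay nearer to 0 than that of the synthesis enzymes. As shares to read the counts against, 31.3% of all tested genes were lower and 30.8% higher in CFAE+8 against MEF. There, 14 of 15 genes of fatty acid synthesis and SREBP1 targeting fell and 0 rose, with a median log2 fold change of −0.55. Scd1, which desaturates fatty acids, fell by 1.88 and Acly, which supplies cytosolic acetyl-CoA, by 1.14 on the log2 scale. Of 11 genes of the isoprenoid branch and protein prenylation, 1 rose and 4 fell (median −0.19), a share of falls near that of all genes. Pdss1, which makes the ubiquinone tail, rose by 1.02, while Nus1, a subunit that makes dolichol, fell by 0.56 and Fntb, a farnesyltransferase subunit, by 0.52. Of 11 genes of SREBP processing and sterol-regulated protein degradation, 5 fell and 0 rose (median −0.12), with the smallest adjusted p for Erlin1 (−1.19) and Erlin2 (−0.65), scaffold proteins of the endoplasmic reticulum. Of 16 genes of sterol storage, receptors and transfer, 4 rose and 9 fell (median −0.29). The sterol carriers Stard5 (0.86) and Gramd1a (0.41) rose, and the lipoprotein receptors Lrp1 (−0.91) and Scarb1 (−0.66) fell. Of 11 oxysterol enzymes, RXR partners and other LXR targets, 3 rose and 8 fell (median −0.44). Cyp27a1, which makes an oxysterol, rose by 2.65 and the LXR target Arl4c by 2.03, whereas Abca2 (−1.65) and the phospholipid transfer gene Pltp (−1.56) fell. Of the LXR targets named here, Arl4c alone was higher in CFAE+8, while Abca1, Abcg1, Mylip and Pltp were lower.

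In CFAE+8+MSC against CFAE+8, where 15.6% of all tested genes were higher and 13.8% lower, the fatty acid list held 9 genes that rose and 1 that fell out of 15 (median 0.27). Scd1 rose by 0.69 and Me1, which supplies NADPH, by 0.54, while Srebf1, the gene of SREBP1, fell by 0.16. The isoprenoid list held 1 rise, Icmt (0.55), and 2 falls, Fnta (−0.36) and Dhdds (−0.30), out of 11, near the shares of all genes. In the SREBP processing list Erlin2 rose by 0.30 and Mbtps1, a protease that cleaves SREBPs, fell by 0.22, with 9 of 11 not called. In the storage and transfer list 6 rose and 2 fell of 16, among them Stard5 (0.78) and Scarb2 (0.37) upward and Lrp1 (−0.33) and Gramd1c (−0.96) downward. In the oxysterol and LXR list 2 of 11 rose, Pltp (0.65) and Arl4c (0.19), and 3 fell, among them Lpcat3 (−0.25) and Abca2 (−0.46). In CFAE+6 against CFAE+8, where 14.3% of all tested genes were higher and 12.3% lower, the same 5 lists, of 15, 11, 11, 16 and 11 genes, held 9, 1, 0, 5 and 2 rises and 2, 0, 0, 2 and 1 falls, in the order given here.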

How the data were processed

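The deposited table holds raw counts per gene for 8 libraries, with gene lengths, symbols and mm10 coordinates. The submitters' processing notes name featureCounts, Subread and DESeq2 without versions. Aligner, annotation release and strand setting were not given in the sources used here. Per the labels' protocols the library kit was NEBNext Ultra, which does not mark strand, so overlapping genes cannot be told apart. Groups came from sample titles.

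With R 4.3.3 and edgeR 4.0.16, the filterByExpr filter kept 15470 of the 28024 genes that had any count, which hold 99.85% of counts, and libraries were scaled with TMM. Groups were compared by the quasi-likelihood F test of edgeR in a single fit to all 8 libraries (4 residual degrees of freedom, common biological coefficient of variation 0.0445) and Benjamini-Hochberg adjustment over all genes tested, called at 0.05. SEs were derived from the unshrunken coefficient and its F value. Levels are CPM, the mean of 2 libraries; log2 fold changes are from the fit. Between replicates, chi-square per degree of freedom was 1.89 to 2.74, so replicates differed beyond counting noise. On simulated counts for CFAE+8 against MEF, 44.4% of 99 genes changed 1.3-fold and 70.8% of 96 changed 2-fold were called. There were 12 false calls among 15033 genes, to be read against the genes called. No other tested gene was changed there, whereas 62.0% of all tested genes were called in the real comparison. These rates therefore need not hold for the real comparison. Alternatives were other scalings and filters, DESeq2 1.42.0, a replicate block, a test against a 1.2-fold change, only the 2 groups compared, and leaving out each library.

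The 30 members and the pathway and marker lists were chosen with earlier results of these data known. Any member could be named; of each pathway list, the 2 genes with the smallest adjusted p in each direction in CFAE+8 against MEF and in CFAE+8+MSC against CFAE+8 are named. Copies were matched to GENCODE M21 transcripts at 95% identity or more over at least 200 bases. For Tm7sf2, Npc1 and Abcg1 the deposited gene length differs from the GENCODE M21 exon union; for the other 27 it is equal.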

Additional observations from a re-analysis of the deposited data

How the results depend on the processing

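Of 2869 member values over 16 alternatives per comparison, 2798 kept direction and side of the threshold, 62 lost a call, 9 gained one and 0 reversed; the sign of differences called under neither was not followed. For the named genes of the pathway lists these numbers were 2189, 106, 2 and 0 of 2297. The cause of the changes below was not tested, beyond fewer libraries or a stricter hypothesis by construction. Against a 1.2-fold change, members higher were 6 (4 synthesis enzymes) in CFAE+6 against CFAE+8, 1 in CFAE+8 against MEF and 1 in CFAE+8+MSC against MEF; in CFAE+8+MSC against CFAE+6, 0 members were higher (0 synthesis enzymes) and 0 lower. DESeq2 also called 0 members lower there. Leaving out 1 library gave 1 to 2 members higher in CFAE+8 against MEF, 0 to 1 lower in CFAE+6 against CFAE+8 and 0 to 1 lower in CFAE+8+MSC against CFAE+6; it gave 11 to 14 higher in CFAE+8+MSC against CFAE+8 and 13 to 18 in CFAE+6 against CFAE+8.

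Replicate numbers are shared by the groups, but same-numbered libraries did not deviate together (correlations −0.0224 to 0.0630 over the 6 pairs of groups). With the number as a replicate block, 12 members were higher in CFAE+8+MSC against CFAE+8, 18 in CFAE+6 against CFAE+8, and 28 were lower in each cocktail against MEF, and no member changed its call. Over all genes, DESeq2 called 1449 higher and 1076 lower in CFAE+6 against CFAE+8 (2215 and 1901 in edgeR), 581 and 306 in CFAE+8+MSC against CFAE+6 (961 and 660), and 1182 lower in CFAE+8+MSC against CFAE+8 (2129). The 1.2-fold test gave 1085 and 569, 190 and 89, and 1294 and 731 in these comparisons. Without 1 library, lower genes fell to 1184 at least in CFAE+6 against CFAE+8, to 1364 in CFAE+8+MSC against CFAE+8 and to 349 in CFAE+8+MSC against CFAE+6, where higher genes fell to 584. Groups of 2 and counts of 4 to 35 for Nr1h3 limit what could be detected.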

Other observations

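The processed copies of Fdps carried counts of their own. Gm3571 had 315 and 320 counts in MEF medium, 103 and 95 in CFAE+8, 104 and 146 in CFAE+8+MSC, and 94 and 112 in CFAE+6, and so held more counts than Fdps in each library. Gm5873 had 55 and 46, 10 and 21, 14 and 29, and 18 and 20 in the same order, and Gm8163 and Gm7979 had 0 throughout. Idi1 has the copies Gm13502, with 76 counts over the 8 libraries against 4053 for Idi1, and Gm35570 with 0, and Acat2 the copy Acat3 with 94 against 12064. Acat2 also shares a stretch of 445 bases, at 98.7% identity, with Tcp1, which held 28792 counts over the 8 libraries.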
